A study of Homo sapiens with 8 samples.

Results

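The genes described here are the ADAM, ADAMTS, ADAMTSL, MMP and TIMP genes, which encode metalloproteinases of the cell surface and the extracellular matrix, the ADAMTS-like matrix proteins and the tissue inhibitors of these enzymes. They were taken by gene name, and 75 of the 29004 loci of the gene table carried such a name: 23 ADAM, 19 ADAMTS, 5 ADAMTSL, 24 MMP and 4 TIMP loci. ADAM19 had 2 loci at the same coordinates, so that the 75 loci stand for 74 gene names. RNA sequencing was performed on 8 samples of 1 AB8/13 line, an immortalized human podocyte line that carries wild-type LATS2 behind a doxycycline-inducible lentiviral promoter (pINDUCER) and was kept at the temperature that permits growth. In 4 samples LATS2 was overexpressed for 8 h with 125 ng/mL doxycycline (LATS2 OE), and 4 samples of the line stayed untreated and carried the construct without induction. The comparison asks which transcripts move early after the Hippo pathway kinase LATS2 is induced. Doxycycline was given to all LATS2 OE samples and to none of the untreated samples, so LATS2 and the drug, which also inhibits MMP enzymes, cannot be told apart.

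The authors deposited 1 pooled FPKM value per group, a level scaled to gene length and sequencing depth, so the values carry no spread and no difference below was tested. Depth per sample is unknown, and so is whether the 4 samples of a group were separate cultures. In cells of at least 1 FPKM the decimal point had been lost where the value had 4 or more decimals, which leaves up to 3 possible levels a power of 10 apart. Ratios below take the placement that brings the groups closest together, which is right wherever a gene changed by less than 3.16-fold. Of 1033 named loci with intact values and at least 0.5 FPKM in a group, 1 locus (0.0968%) had changed by more than that. Only 89 of these loci reached 1 FPKM in a group, and none was a member, so the share need not hold for members of at least 1 FPKM. Values below 1 FPKM were intact and are given exactly. For LATS2 itself, the digits allowed LATS2 OE cells to be 2.01-fold, 20.1-fold or 201-fold higher than untreated cells, or 4.97-fold or 49.7-fold lower, so the pooled FPKM values alone did not settle the check of the induced gene. Of the podocyte markers, 4 of 10 reached 1 FPKM (PODXL, SYNPO, CD2AP and VIM), whereas the slit diaphragm gene NPHS1 had 0.00616 FPKM in LATS2 OE cells and 0.00875 FPKM in untreated cells. WT1, a podocyte transcription factor, had 0.412 FPKM in LATS2 OE cells and 0.413 FPKM in untreated cells. None of 6 endothelial and 6 tubular markers reached 1 FPKM, 1 of 5 leukocyte markers did (CD68), and 2 of 4 mesangial markers did (PDGFRB and ACTA2).

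The metalloproteinases of these families hold a zinc ion in their active site and are made as inactive precursors. ADAM proteins sit in the membrane and release the outer parts of other membrane proteins, ADAMTS proteins are secreted and cut proteoglycans, procollagens and fibrillin microfibrils, and MMPs degrade collagens, laminins and many other matrix proteins. TIMPs bind the active site and block it. In the kidney glomerulus these enzymes and inhibitors act on the basement membrane that podocytes share with endothelial cells, and on the surface proteins of the podocyte.

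Of the 75 loci, 25 had at least 1 FPKM, in both groups for each of them. Among these 25, 4 ADAMTS genes were at least 1.5-fold lower in LATS2 OE than untreated cells (ADAMTS1, ADAMTS5, ADAMTS6 and ADAMTS3), 1 gene was at least 1.5-fold higher (ADAM8), and 20 stayed within 1.5-fold. By the same rule 3.44% of 12174 named loci of at least 1 FPKM were past 1.5-fold, 1.91% lower and 1.54% higher, against 20% of the members, 16% of them lower. The median log2 ratio of the 25 members was -0.03 and that of all 12174 loci -0.0034, while the median absolute log2 ratio was 0.21 for the members and 0.074 for all loci. At a limit of 2-fold ADAMTS1 alone was past it, as were 0.583% of all loci on the lower side and 0.419% on the higher side. At a limit of 25% above the lower of the group values 6 members were lower and 2 higher, against 4.98% and 4.82% of all loci. With no filter on low values 11 of 60 members were higher and 8 lower, against 8.16% higher and 5.57% lower among 18501 named loci, and 11 of these 19 members lay below 0.1 FPKM in both groups. With 1 pooled value per group these shares are descriptions of the libraries. They also rest on the closest placement, so a locus that changed by more than 3.16-fold can be counted wrongly in them.

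Promoters are shown for the genes past 1.5-fold that had an entry in the RefSeq promoter table, as the stretch next to the start site in which motifs were searched. They are the 250 bases before the start, on the minus strand of GRCh38.p14, for ADAM8 (chr10:133276869-133277118), ADAMTS3 (chr4:72569222-72569471) and ADAMTS6 (chr5:65481921-65482170), 5′ to 3′, with capitals marking GGAATG, the core motif bound by TEAD factors, the DNA-binding partners of YAP.
ADAM8: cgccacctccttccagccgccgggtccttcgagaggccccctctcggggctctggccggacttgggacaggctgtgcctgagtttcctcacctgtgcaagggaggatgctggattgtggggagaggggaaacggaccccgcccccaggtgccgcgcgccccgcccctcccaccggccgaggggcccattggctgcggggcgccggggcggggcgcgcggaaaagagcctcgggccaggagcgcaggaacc
ADAMTS3: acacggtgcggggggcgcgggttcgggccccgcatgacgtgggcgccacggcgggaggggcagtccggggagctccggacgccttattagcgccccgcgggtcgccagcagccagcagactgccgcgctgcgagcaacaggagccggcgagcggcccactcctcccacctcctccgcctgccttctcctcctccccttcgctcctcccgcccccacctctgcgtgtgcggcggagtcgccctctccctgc
ADAMTS6: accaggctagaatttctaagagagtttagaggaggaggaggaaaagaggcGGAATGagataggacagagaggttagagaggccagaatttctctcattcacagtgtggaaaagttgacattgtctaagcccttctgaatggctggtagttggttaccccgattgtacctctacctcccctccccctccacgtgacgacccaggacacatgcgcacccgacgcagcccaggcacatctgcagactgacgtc
Of the 25 members, 17 had an entry, and those without one were ADAM9, ADAMTS1, ADAMTS5, ADAMTS9, MMP16, MMP19, MMP2 and TIMP2. GGAATG, on either strand, was found in 3 of the 17 (ADAMTS6, 200 bases before the start, ADAMTS12 and ADAM17), against 11.89% of 35116 promoters of this length. TGANTCA, the AP-1 motif, was found in 1 of the 17 (ADAMTS12, 84 bases before the start), against 6.573% of all promoters. A match is a string of letters in this window, and binding was not measured.

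The hyalectanases are the ADAMTS enzymes that cut versican, aggrecan and related proteoglycans, and 3 of the 7 reached 1 FPKM. ADAMTS1 had 5.90 or 59.0 FPKM in LATS2 OE cells, against 12.1 or 121 FPKM in untreated cells. It was 2.05-fold lower in LATS2 OE cells (log2 ratio -1.04), and 0.501% of the 12174 named loci had a lower ratio. ADAMTS5, a main aggrecanase of cartilage, had 1.53, 15.3 or 153 FPKM in LATS2 OE cells, against 3.02, 30.2 or 302 FPKM in untreated cells. It was 1.98-fold lower (log2 ratio -0.98). The direction of each of the 5 genes past 1.5-fold rests on the closest placement, since the next one would give a log2 ratio of 2.29 for ADAMTS1, 2.34 for ADAMTS5, 2.57 for ADAMTS6, 2.58 for ADAMTS3 and -2.69 for ADAM8. ADAMTS9, in contrast, was nearly level between the groups, with a log2 ratio of 0.06 and 3.36 FPKM in LATS2 OE cells against 3.23 FPKM in untreated cells at the lowest placement. The locus of ADAMTS9 also holds ADAMTS9-AS1, ADAMTS9-AS2 and MIR548A2, and the library kit does not mark strand. Whether fewer transcripts came from every cell or from fewer cells cannot be told apart in pooled bulk RNA.

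Of the other ADAMTS genes 4 reached 1 FPKM. ADAMTS3, which removes the amino-terminal propeptide of procollagens and takes part in the activation of VEGF-C, was 1.67-fold lower in LATS2 OE cells (log2 ratio -0.74), with 3.34, 33.4 or 334 FPKM against 5.56, 55.6 or 556 FPKM in untreated cells. ADAMTS6, a relative of the fibrillin-associated ADAMTS10, was 1.68-fold lower (log2 ratio -0.75), with 2.99, 29.9 or 299 FPKM against 5.04, 50.4 or 504 FPKM in untreated cells. Neither of the other procollagen proteinases shared the level of ADAMTS3, since ADAMTS14 had 0.0164 FPKM in LATS2 OE cells and 0.00822 FPKM in untreated cells and ADAMTS2 was listed at 0 in LATS2 OE cells and at 0.00301 FPKM in untreated cells. The pair that cuts cartilage oligomeric matrix protein stayed within 1.5-fold, with a log2 ratio of 0.20 for ADAMTS7 and -0.28 for ADAMTS12. The 7 ADAMTS genes together had a median log2 ratio of -0.74.

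The ADAMTS-like proteins lack the protease domain and bind to the matrix, several of them to fibrillin microfibrils. None of the 4 that reached 1 FPKM was past 1.5-fold. ADAMTSL1 came closest to the lower limit, 1.45-fold lower in LATS2 OE cells (log2 ratio -0.54), with 4.05 FPKM against 5.88 FPKM in untreated cells at the lowest placement. ADAMTSL4, whose locus also holds the survival gene MCL1, had a log2 ratio of -0.30, ADAMTSL3 one of -0.06 and ADAMTSL5 one of 0.0048.

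**Figure D1:**
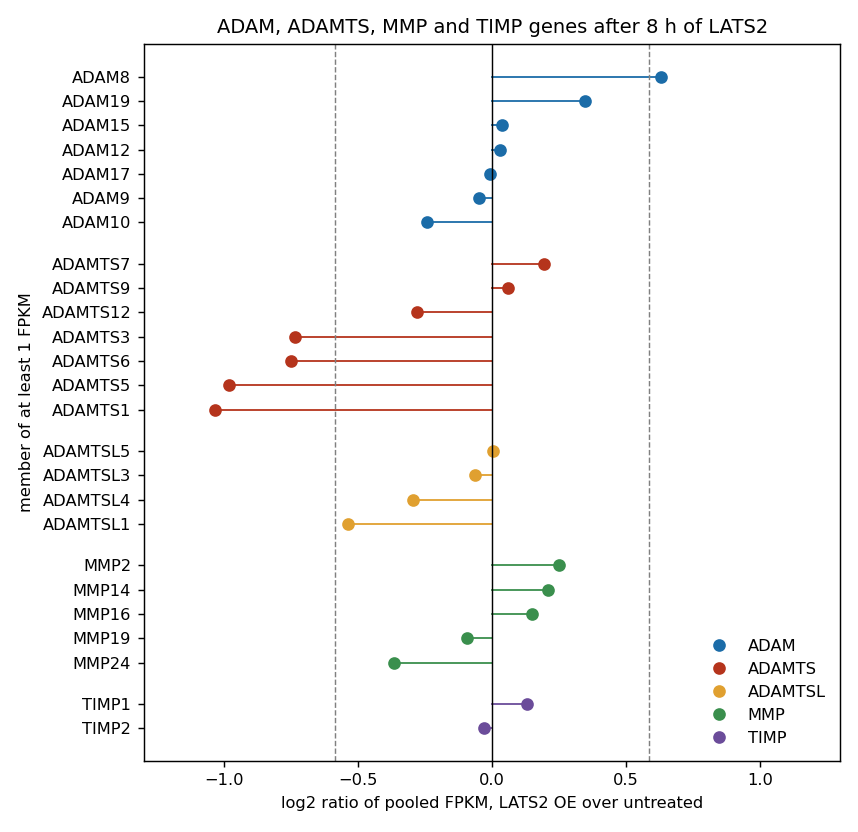
Log2 ratio of the pooled FPKM values, LATS2 OE over untreated (x axis), for each of the 25 members of at least 1 FPKM (y axis), coloured by family, with dashed lines at 1.5-fold. ADAMTS1, ADAMTS5, ADAMTS6 and ADAMTS3 lie left of the lower line and ADAM8 lies right of the upper line, and the other 20 lie between the lines.

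Among the matrix metalloproteinases, 5 of 24 loci reached 1 FPKM and none was past 1.5-fold. MMP2, the gelatinase that degrades type IV collagen, was 1.19-fold higher in LATS2 OE cells (log2 ratio 0.25), with 3.61 FPKM against 3.03 FPKM in untreated cells at the lowest placement. MMP14, the membrane-anchored enzyme that activates pro-MMP2 together with TIMP2, was 1.16-fold higher (log2 ratio 0.21), with 1.75 FPKM against 1.52 FPKM in untreated cells at the lowest placement. Both stood high among all named loci, of which 92.9% had a lower ratio than MMP2 and 90.9% a lower ratio than MMP14. The other membrane-anchored enzymes went in both directions, with MMP16 at a log2 ratio of 0.15 and MMP24 at -0.37. MMP24 had 5.89 FPKM in LATS2 OE cells and 7.60 FPKM in untreated cells at the lowest placement. For MMP24, 4.07% of named loci had a lower ratio, and its locus overlaps the gene MMP24OS. MMP19 had a log2 ratio of -0.09, and its locus also holds ORMDL2 and DNAJC14.

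The collagenase genes and the stromelysin genes MMP3 and MMP10 were at or near 0. The 9 MMP genes of the cluster on chromosome 11 (hg19, 102391239 to 102826463) held no gene of 1 FPKM. Of these, 3 were listed at 0 in both groups and 3 at 0 in 1 group, and outside the matrilysin gene MMP7 the highest value was 0.0265 FPKM, that of the collagenase gene MMP13 in LATS2 OE cells. MMP7 had 0.625 FPKM in LATS2 OE cells and 0.498 FPKM in untreated cells. MMP11, a stromelysin gene on chromosome 22, had 0.234 FPKM in LATS2 OE cells and 0.220 FPKM in untreated cells.

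Of the ADAM genes, 7 of 23 loci reached 1 FPKM, and all 7 encode members with an active protease domain. ADAM8, a sheddase best known from leukocytes and from invasive tumors, was 1.55-fold higher in LATS2 OE cells (log2 ratio 0.63), with 3.76, 37.6 or 376 FPKM against 2.43, 24.3 or 243 FPKM in untreated cells. ADAM8 lay just past the 1.5-fold limit, and 98.6% of named loci had a lower ratio. ADAM19, which sheds neuregulins, was next, 1.27-fold higher (log2 ratio 0.35), with 9.81 FPKM against 7.72 FPKM in untreated cells at the lowest placement. The main sheddases stayed within 1.5-fold. ADAM10, which cleaves Notch receptors and cadherins, had a log2 ratio of -0.24, with 4.73 FPKM in LATS2 OE cells against 5.60 FPKM in untreated cells at the lowest placement. ADAM17, which releases TNF and ligands of the EGF receptor, had a log2 ratio of -0.0065. The log2 ratio was -0.05 for ADAM9, 0.03 for ADAM12 and 0.04 for ADAM15.

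The inhibitors TIMP1 and TIMP2 were close to level. TIMP1 had a log2 ratio of 0.13, with 9.43 FPKM in LATS2 OE cells against 8.61 FPKM in untreated cells at the lowest placement, and its locus also holds ARAF and SYN1. TIMP2 had a log2 ratio of -0.03, with 7.37 FPKM against 7.52 FPKM in untreated cells at the lowest placement. TIMP3, which is bound to the matrix and inhibits ADAM and ADAMTS enzymes as well, was listed at 0.00206 FPKM in LATS2 OE cells and 0.00406 FPKM in untreated cells, at a locus that spans SYN3. Across the families the median log2 ratio was -0.74 for the 7 ADAMTS, -0.18 for the 4 ADAMTSL, 0.03 for the 7 ADAM, 0.05 for the 2 TIMP and 0.15 for the 5 MMP loci of at least 1 FPKM.

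**Figure D2:**
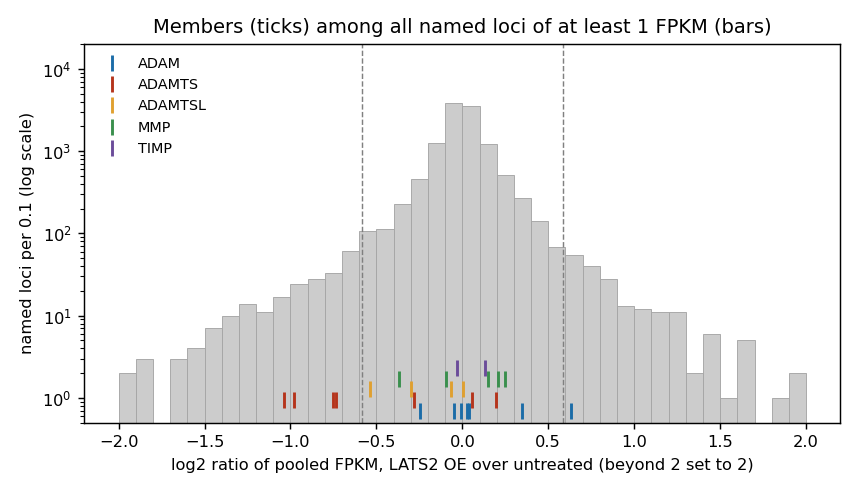
Histogram of the log2 ratios of all 12174 named loci of at least 1 FPKM (x axis, LATS2 OE over untreated; y axis, loci per 0.1 on a log scale), with the 25 members as ticks in a row for each family and dashed lines at 1.5-fold. The ticks of ADAMTS1 and ADAMTS5 lie in the lower tail, where 0.501% and 0.600% of loci had lower ratios.

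The other 50 loci were below 1 FPKM in both groups or at 0. Of these, 13 had at least 0.1 FPKM in a group, 22 were above 0 in both groups and below 0.1 FPKM, 4 were listed at 0 in 1 group (MMP3, MMP8, MMP20 and ADAMTS2), and 11 were listed at 0 in both groups, among them the sperm gene ADAM2 and the macrophage elastase gene MMP12. MMP23A and MMP23B are near-identical copies, so reads shared between them leave both values uncertain. Of the 13, 3 were past 1.5-fold (2 higher and 1 lower), and so were 17.9% of the 2851 named loci at this level. ADAMTS15, a hyalectanase, had 0.140 FPKM in LATS2 OE cells, against 0.370 FPKM in untreated cells. It was 2.64-fold lower (log2 ratio -1.40), and 18 of the 2851 loci had a lower ratio. MMP9, the gelatinase made in quantity by neutrophils, had 0.211 FPKM in LATS2 OE cells, against 0.123 FPKM in untreated cells, which is 1.72-fold higher. The second ADAM19 locus had 0.400 FPKM in LATS2 OE cells, against 0.182 FPKM in untreated cells, which is 2.20-fold higher. It shares its coordinates with the main ADAM19 locus, and the library kit does not mark strand, so how reads were divided between them is not known. The other 10 stayed within 1.5-fold, including MMP15 (0.873 FPKM in LATS2 OE cells and 0.815 FPKM in untreated cells), the von Willebrand factor protease gene ADAMTS13 (0.684 FPKM in LATS2 OE cells and 0.713 FPKM in untreated cells) and TIMP4 (0.468 FPKM in LATS2 OE cells and 0.352 FPKM in untreated cells).

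**Figure D3:**
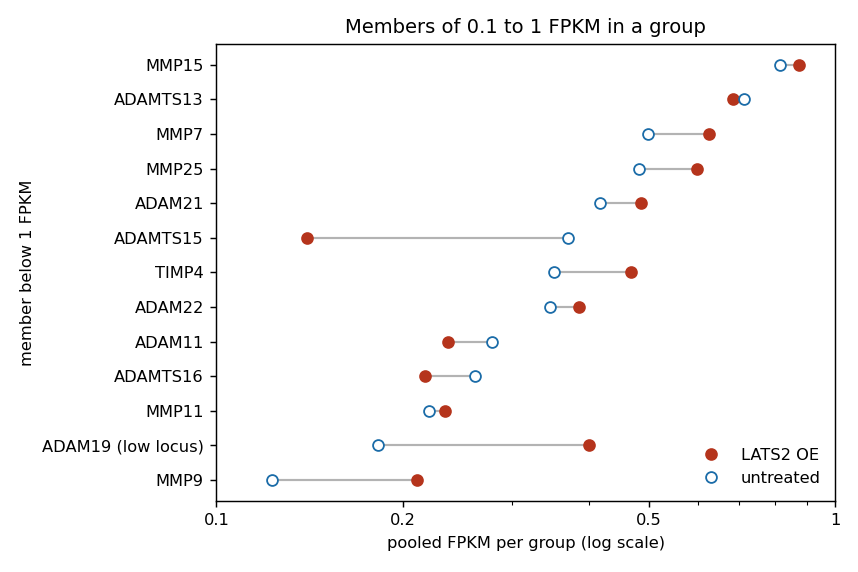
Pooled FPKM values on a log axis (x axis) of the 13 members between 0.1 and 1 FPKM (y axis), with filled points for LATS2 OE and open points for untreated cells. The widest gap is that of ADAMTS15, which had 0.140 FPKM in LATS2 OE cells against 0.370 FPKM in untreated cells.

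ADAMTS1 and ADAMTS5 are neighbours. In hg19 both lie on the minus strand of chromosome 21, ADAMTS1 from 28208606 to 28217728 and ADAMTS5 from 28290231 to 28339439, with 72502 bp between them. An unnamed locus from 28339463 to 28339751, next to ADAMTS5, had a log2 ratio of -1.03, and a second one from 28340777 to 28347607 had 0.367 FPKM in LATS2 OE cells against 0.673 FPKM in untreated cells (log2 ratio -0.88). All 4 loci were lower in LATS2 OE cells, by similar ratios, and no spread is known for any of them. For ADAMTS1, ADAMTS5 and the first unnamed locus the direction rests on the closest placement, whereas the values of the second were intact. The first unnamed locus lies 23 bp from ADAMTS5 and the library kit does not mark strand. Whether the unnamed loci are transcribed apart from ADAMTS5 was not tested. The nearest named genes on the other side did not share this. APP, the amyloid precursor gene, had a log2 ratio of -0.03, and the 2 loci of CYYR1 had -0.16 and -0.01. Both CYYR1 loci were below 1 FPKM, and APP lay more than 500 kb from ADAMTS1. No other locus of at least 1 FPKM lay within 500 kb of ADAMTS1 beside ADAMTS5 and the first unnamed locus.

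**Figure D4:**
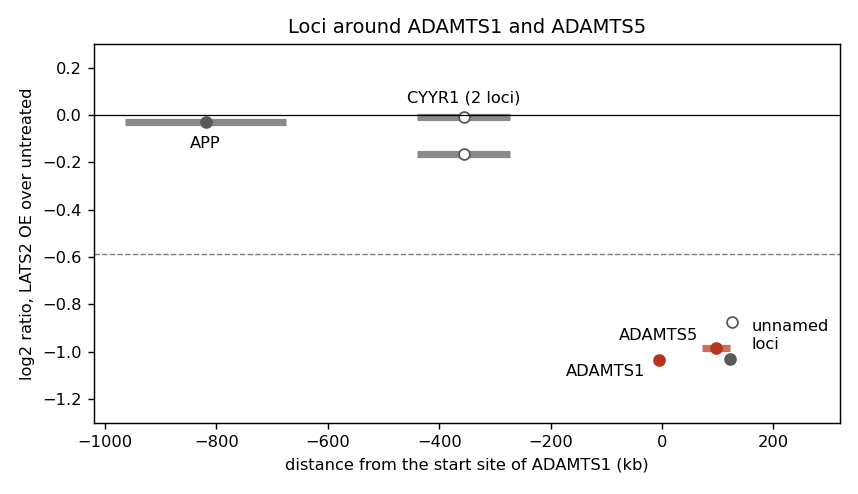
Log2 ratio, LATS2 OE over untreated (y axis), of the loci with values in both groups around ADAMTS1, by their distance from its start site in kb (x axis). Bars span each locus, open points are below 1 FPKM, and the dashed line marks 1.5-fold lower; ADAMTS1, ADAMTS5 and the unnamed loci lie between -0.88 and -1.04, and APP and CYYR1 between -0.16 and -0.01.

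The other genes past 1.5-fold had mixed surroundings. ADAMTS3 lies on the minus strand of chromosome 4 from 73146686 to 73435180, and of 2 neighbours within 500 kb the neuropeptide receptor gene NPFFR2 had a log2 ratio of -0.63 and the cytochrome c oxidase assembly gene COX18 one of -0.05. ADAMTS6 lies on the minus strand of chromosome 5 from 64444563 to 64777781, and 1 of its 10 neighbours of at least 1 FPKM was past 1.5-fold, an unnamed locus at -0.73 next to ERBB2IP at -0.56. ADAM8 lies on the minus strand of chromosome 10 from 135075920 to 135090457, and none of its 9 neighbours was past 1.5-fold, with log2 ratios between -0.18 and 0.12. None of the 5 genes overlaps another annotated protein-coding gene, whereas 11 of the 25 members do.

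Genes that act with these enzymes were mostly level. Of 4 proprotein convertases, which remove the propeptide of ADAM, ADAMTS and membrane-anchored MMP precursors, 2 reached 1 FPKM, with a log2 ratio of 0.06 for FURIN and -0.11 for PCSK7. Of 9 partners of ADAM10 and ADAM17, mostly tetraspanins and iRhoms that help these enzymes to reach the surface, 8 reached 1 FPKM and none was past 1.5-fold. The median of the 8 was 0.07, and the largest log2 ratios were those of the tetraspanin genes TSPAN33 (0.43) and TSPAN10 (0.13) and of the iRhom gene RHBDF2 (0.17). Of 8 other metzincins 2 reached 1 FPKM, with 0.17 for the procollagen C-proteinase gene BMP1 and -0.09 for TLL2. Of 8 other inhibitors and regulators 4 did, none past 1.5-fold, with 0.53 for the serine protease inhibitor gene TFPI2, 0.11 for the proteoglycan gene SPOCK1 and 0.02 for RECK, a membrane-anchored inhibitor of MMPs.

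Of 14 matrix substrates, 9 reached 1 FPKM and none was past 1.5-fold, with a median log2 ratio of 0.03. The collagen IV genes COL4A1 and COL4A2 had -0.18 and -0.13, the fibronectin gene FN1 had 0.16, and the versican gene VCAN, whose product the hyalectanases cut, had 0.03. Of 14 genes whose products are shed by ADAM proteins, 11 reached 1 FPKM, with 1 higher, 1 lower and a median of 0.14. Among all 12174 named loci of at least 1 FPKM, 1.54% were at least 1.5-fold higher and 1.91% lower. CX3CL1, a chemokine released by ADAM10 and ADAM17, was 1.77-fold higher in LATS2 OE cells at the closest placement (log2 ratio 0.82), with 7.69 FPKM against 4.34 FPKM in untreated cells at the lowest placement. At the next placement of CX3CL1 the ratio of LATS2 OE over untreated would be 0.177, so its direction rests on the closest placement. HBEGF, a ligand of the EGF receptor shed by ADAM17 and other ADAM proteins, was 2.43-fold lower at the closest placement (log2 ratio -1.28). There it had 8.53 or 85.3 FPKM in LATS2 OE cells, against 20.7 or 207 FPKM in untreated cells. Its next placement would make it 4.11-fold higher, so its direction rests on the closest placement being right. With HBEGF at its next placement and CX3CL1 at its closest, the list would have 2 genes higher, 0 lower and a median of 0.18. TNF had a log2 ratio of 0.26 at its only locus of at least 1 FPKM. The levels there were 5.46 FPKM in LATS2 OE cells against 4.56 FPKM in untreated cells at the lowest placement. The other loci named TNF were listed at 0 in both groups. EREG, another EGF receptor ligand below the filter and picked out after its values were seen, had 0.395 FPKM in LATS2 OE cells against 0.130 FPKM in untreated cells.

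**Figure D5:**
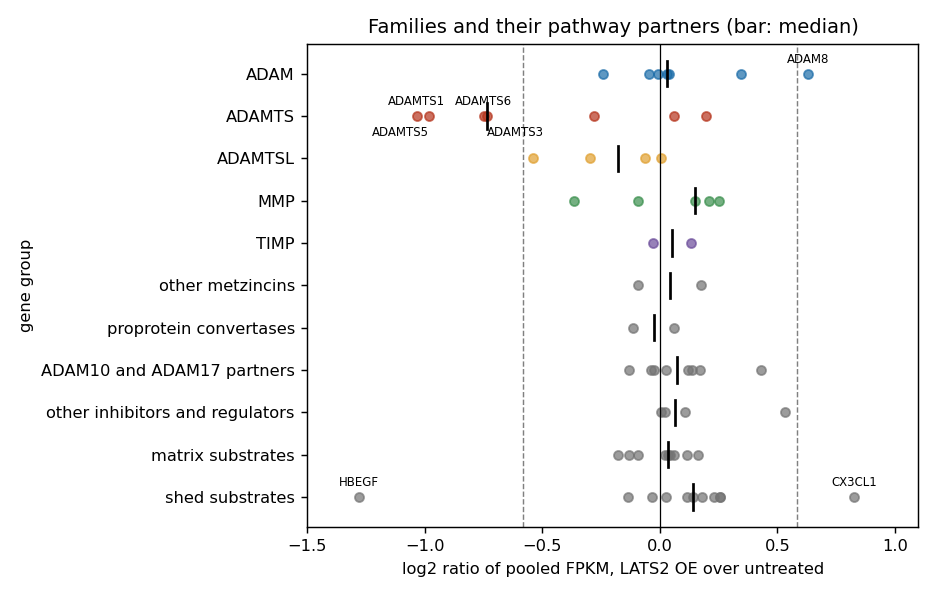
Log2 ratio, LATS2 OE over untreated (x axis), of the genes of at least 1 FPKM in the 5 families and in 6 lists of partner genes (y axis), 1 point per gene, with a bar at each median and dashed lines at 1.5-fold. The ADAMTS median lies at -0.74, and in the 6 partner lists HBEGF and CX3CL1 lie outside the lines.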

How the data were processed

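RNA sequencing data of 8 samples (4 LATS2 OE, 4 untreated, grouped by the sample labels) were used. Poly(A) libraries were made with a kit that does not mark strand. Trimming by the authors used Trimmomatic (version 0.33), and TopHat and Cufflinks were run against hg19. For the versions of these programs and the annotation, the sources used here give nothing. The authors deposited 1 gene table with 1 pooled FPKM value per group. Its columns of fold changes, test statistics, p-values and q-values, the authors' own comparison, were not used.

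A test with limma across samples had been planned, but the table gives values per group, so the ratio of pooled FPKM values was used with no test, no pseudocount and a limit of 1.5-fold. Loci needed at least 1 FPKM in 1 group and a value above 0 in the other. Of 24849 cells of at least 1, 0 had 4 or more decimals, against 17823 of 17830 cells between 0 and 1. A cell with the point lost was given every possible level, and the ratio closest to 1 was kept. This step was tested on simulated data with set changes, which cannot show that the placements in the deposited values are right. Python (version 3.11.15) with pandas (version 2.3.3) was used.

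The named genes are LATS2, every member of at least 1 FPKM, the members between 0.1 and 1 FPKM past 1.5-fold, and up to 3 genes with the largest absolute log2 ratio from each other list; others were added after their values were seen. The members and lists were chosen with earlier results of these data known. Alternatives were a limit of 25% above the lower value or of 2-fold, other filters, a pseudocount of 0.1 FPKM, median centring, loci with 1 gene name, intact cells and loci free of overlaps.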

Additional observations from a re-analysis of the deposited data

How the results depend on the processing

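With the limit at 25% above the lower of the group values, 2 members were higher and 6 lower (4.82% and 4.98% of all named loci), and with the limit at 2-fold 0 were higher and 1 lower (ADAMTS1; 0.419% and 0.583% of all named loci), against 1 and 4 in the report. Without a filter on low values, where 60 members had a ratio, 11 were higher and 8 lower (8.16% and 5.57% of all named loci), and the median log2 ratio was 0.03 in place of -0.03. The counts of 1 higher and 4 lower were also obtained with at least 1 FPKM in both groups, with a pseudocount of 0.1 FPKM, with the median of all named loci set to 0 (a shift of -0.0039), with loci of 1 gene name, and, an alternative chosen after seeing the data, among the 14 members that overlap no other protein-coding gene, where the median was -0.08. The ratios of the 25 members of at least 1 FPKM were recomputed both with the pseudocount and with the centring. All 50 recomputed ratios stayed on their side of 1.5-fold, and the largest move was 0.044. No member of at least 1 FPKM had intact cells in both groups, so the ratios of these 25 could not be recomputed from intact cells, and among 89 intact named loci 0 were past 1.5-fold. No paired analysis was possible because the table holds pooled values. Leaving out a replicate could not be run for the same reason.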
